A study of Mus musculus with 12 samples.

Results

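The 9 genes of vitamin A (retinoid) metabolism followed here in mouse liver were Rbp4, Adh1, Rdh7, Rdh16, Rdh11, Dhrs4, Aldh1a1, Aldh1a7 and Cyp26a1. They were chosen by name, with earlier results of these data known, as 9 of the 24062 genes in the count tables. All 9 were among the 12481 genes that passed the filter on low counts (at least 1 CPM, counts scaled by library total, in 2 or more of the 12 libraries). The libraries were RNA-seq of whole liver from 12 female C57BL/6J mice, a wild-type inbred strain, that arrived at 6 weeks of age and were acclimated for 2 weeks. Of these, 6 mice ate a control diet, and 6 ate a matched diet with BIBB-515, an inhibitor of the cholesterol synthesis enzyme lanosterol synthase, dosed at 55 mg per kg body weight for 10 days. The mice are named by the numbers of their labels, control mice 1 to 6 and BIBB-515 mice 6 to 11, and control mouse 6 and BIBB-515 mouse 6 are different animals.

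The liver takes up vitamin A from the diet, stores it as retinyl esters in stellate cells and releases it as retinol bound to the plasma carrier RBP4. Inside cells, alcohol and short-chain dehydrogenases interconvert retinol and retinal. Aldehyde dehydrogenases such as ALDH1A1 oxidise retinal to retinoic acid, and CYP26 enzymes break retinoic acid down. Retinoic acid binds nuclear receptors that control transcription, and Cyp26a1 is itself a classic retinoic acid target.

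Total counts per library ran from 22764819 to 27914647 in control and from 24223939 to 31058370 in BIBB-515 mice. The most abundant 20 genes took 27.7 to 29.8% of the counts in control libraries and 23.6 to 25.2% in BIBB-515 libraries, without overlap. Hepatocyte marker genes summed to 140850 to 156494 CPM in control and 104717 to 120940 CPM in BIBB-515 mice. Most of this sum was Alb, with means of 120094 and 90923 CPM. The part of these differences in the results below was not tested. Of the 6 hepatocyte markers 3 were past the threshold of the gene-level test given below, all lower (50%, against 13.7% of all tested genes). The other 3, Apoa1, Cps1 and Tat, had log2 fold changes of -0.27, -0.09 and -0.22. Sums of other marker lists overlapped between the diets: Kupffer cells had 282 to 485 CPM in control and 287 to 514.5 CPM in BIBB-515 mice, sinusoidal endothelium 172 to 232 and 154 to 208, and bile duct 62.6 to 116 and 91.9 to 154. Markers of pericentral hepatocytes summed to 4657 to 8344 and 6189 to 7395 CPM, and those of periportal hepatocytes to 4680 to 8131 and 4793 to 5939 CPM. The most abundant were Cyp2e1 (means of 4618 and 4538 CPM) and Pck1 (3970 and 2687 CPM). Of the 8 pericentral markers, Cyp1a2 was past the same threshold as higher (log2 fold change 0.73). Glul (-0.29), Slc1a2 (-0.34) and Lgr5 (-0.515) were lower. Of the 6 periportal markers, Cyp2f2 (0.99) and Hal (0.55) were higher and Pck1 (-0.56) lower. That was 50% of each list. The 5 fat cell markers stayed at or under 0.282 CPM in sum, with Lep at 0 in every library.

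Of the 9 genes, both Aldh1a genes rose with BIBB-515 and the 7 others missed the threshold (edgeR's quasi-likelihood test, false discovery rate, FDR, under 0.05 over all tested genes). Over all tested genes 13.7% passed, 7.18% as higher and 6.48% as lower. The median log2 fold change of the 9 genes was 0.04, against -0.01 over all tested genes. Aldh1a1 and Aldh1a7 were also the only members whose 2 diet groups did not overlap, against 7.07% of all tested genes (4.35% apart as higher and 2.72% as lower). CPM values below are scaled by TMM (trimmed mean of M-values) factors, and fold changes are BIBB-515 against control, with the standard error (SE) of the log2 value.

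**Figure D1:**
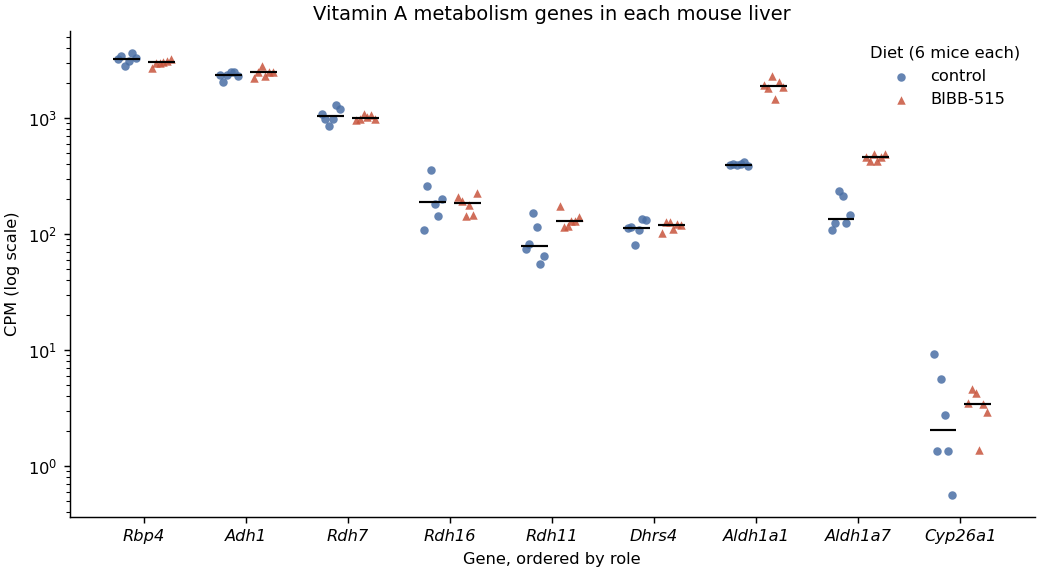
CPM of each of the 9 genes (log axis) in every mouse, with 6 control mice as circles and 6 BIBB-515 mice as triangles, and the group median as a bar. The 2 groups are apart for Aldh1a1 and Aldh1a7, where control mice end at 421 and 233 CPM and BIBB-515 mice begin at 1454 and 423 CPM, and they overlap for the other genes.

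Aldh1a1 encodes the cytosolic retinaldehyde dehydrogenase that makes retinoic acid and also clears other aldehydes. It lies on chromosome 19 from 20601982 to 20643462 on the plus strand (mm10). Control mice had 387 CPM at the lowest, 397 at the median and 421 at the highest, and BIBB-515 mice had 1454, 1896 and 2314. Every BIBB-515 mouse was far above every control mouse. The control mice lay close together (400 ± 12.0 CPM, SD, n = 6, a coefficient of variation of 3.00%), whereas the BIBB-515 mice were spread more widely (1900 ± 282 CPM, SD, n = 6, 14.8%), with mouse 9 lowest and mouse 8 highest. The level was 4.75-fold higher (log2 fold change 2.25, SE 0.10, FDR 1.6e-09, edgeR's quasi-likelihood test), which ranked Aldh1a1 26th of all tested genes by size of rise and 5th by p. An exact two-sided permutation test over the 924 ways to label the mice gave p = 0.00216, the smallest it can give.

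Aldh1a7 is a rodent paralog of Aldh1a1, and whether its enzyme acts on retinal was not tested here. It lies on the same chromosome from 20692953 to 20727556 on the minus strand, so that the 3' ends of both genes face each other across 49490 bases. Its lowest, median and highest levels were 108, 136 and 233 CPM in control mice and 423, 462 and 490 CPM in BIBB-515 mice. The groups did not overlap, although control mice 3 and 4, at 233 and 213 CPM, stood above the other 4 control mice. Here the spread was the other way round, with a coefficient of variation of 32.6% in control (159 ± 51.7 CPM, SD, n = 6) and 6.21% in BIBB-515 mice (459 ± 28.5 CPM, SD, n = 6). The rise was 2.90-fold (log2 fold change 1.53, SE 0.17, FDR 4.14e-05, edgeR's quasi-likelihood test), and the exact permutation test again gave its smallest p of 0.00216.

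The coding sequences of the Aldh1a genes are 1503 bases long each and identical at 1377 of them (91.6%, GENCODE transcripts, aligned with 0 gaps). How far short reads can tell them apart bears on both values. Of all 50-base words in their transcripts, 3.06% of Aldh1a1 and 7.49% of Aldh1a7 words also occur in the other gene. These shares pool every GENCODE transcript of a gene, which for Aldh1a1 reach beyond the 2032 bases that were counted. Within the coding sequence alone, 10.4% of Aldh1a1 words also occur in Aldh1a7. Reads that mapped to several places were left out of the counts, so reads inside those stretches count for neither gene. The stretch of 60 coding bases that differs most (bases 317 to 376 of the coding sequence, 16 differences) is shown to let the pair be compared by eye, with the differing bases in capitals.
Aldh1a1: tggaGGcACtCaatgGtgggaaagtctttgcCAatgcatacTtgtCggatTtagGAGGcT
Aldh1a7: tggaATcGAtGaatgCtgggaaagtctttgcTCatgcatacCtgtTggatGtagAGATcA

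The genes are also alike just upstream. In the 100 bases before the RefSeq start (GRCm38.p6), at chr19:20601868-20601967 on the plus strand for Aldh1a1 and chr19:20727557-20727656 on the minus strand for Aldh1a7, 94 bases are the same without any gap. The next most alike pair among the 9 genes, Adh1 and Rdh7, shares 38 of 100. These promoter ends are shown because the genes behind them rose together, again with the differing bases in capitals.
Aldh1a1: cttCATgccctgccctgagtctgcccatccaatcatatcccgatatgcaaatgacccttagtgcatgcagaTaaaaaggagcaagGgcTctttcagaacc
Aldh1a7: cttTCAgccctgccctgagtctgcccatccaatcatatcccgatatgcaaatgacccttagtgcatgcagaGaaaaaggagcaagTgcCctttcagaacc

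Both rises ran through the whole gene. All 13 exons of Aldh1a1 were higher in BIBB-515 mice, with log2 ratios of mean CPM from 2.17 to 2.46 (median 2.30), and all 13 exons of Aldh1a7 were higher by 1.47 to 1.72 (median 1.56). In each of these exons the groups did not overlap. Reads across a junction are counted in each exon they touch, so neighbouring exons are not independent measurements.

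**Figure D2:**
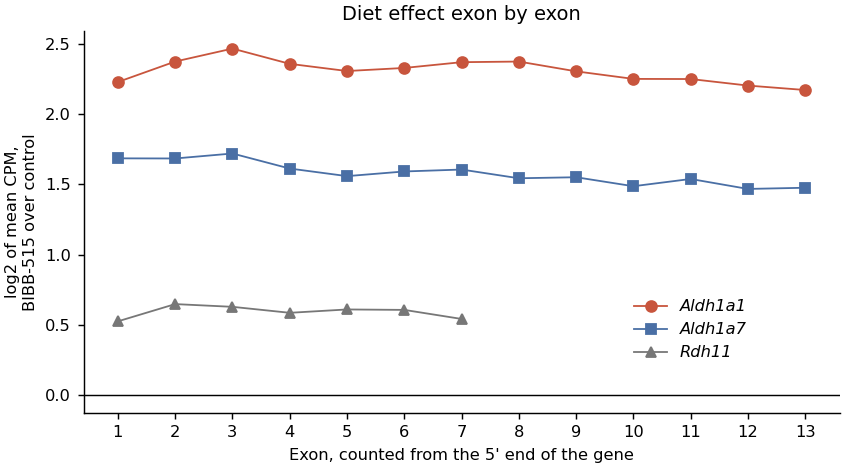
Log2 ratio of mean CPM, BIBB-515 over control (6 mice each), for each exon in order from the 5' end. Aldh1a1 exons lie between 2.17 and 2.46, Aldh1a7 exons between 1.47 and 1.72, and the 7 Rdh11 exons, whose groups overlap in every exon, between 0.53 and 0.65.

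Aldh1a1 rose more than Aldh1a7. The log2 ratio of Aldh1a1 to Aldh1a7 counts within a mouse went from 1.39 ± 0.46 in control to 2.04 ± 0.16 in BIBB-515 mice (SD, n = 6 each), a difference of 0.64 (exact permutation p = 0.00433, 0.00866 after Benjamini-Hochberg adjustment over 6 ratios). The control ratios reached from 0.76 to 1.86 and the BIBB-515 ratios from 1.78 to 2.24, so the groups overlapped only at their edges. Across the 12 mice, after each diet's mean was taken out, the levels of the Aldh1a genes had a Pearson r of 0.12 and a Spearman rho of 0.29 (permutation p = 0.349 and 0.284). By diet r was -0.17 in control and 0.78 in BIBB-515 mice.

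The 5 members of the upstream steps, in which retinol is oxidised and retinal reduced, missed the threshold, and Rdh11 alone had an unadjusted p under 0.05. Adh1, the cytosolic alcohol dehydrogenase that oxidises both ethanol and retinol (chromosome 3, 138277645 to 138290691, plus strand), had 2036, 2348 and 2502 CPM (lowest, median and highest) in control and 2212, 2493 and 2785 CPM in BIBB-515 mice. The groups overlapped, with 3 BIBB-515 mice above every control mouse. The log2 fold change of Adh1 was 0.08 (95% interval -0.09 to 0.25, FDR 0.519, edgeR's quasi-likelihood test).

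Rdh7 and Rdh16 encode microsomal short-chain dehydrogenases that oxidise retinols and some steroids, and lie in one cluster of related genes on chromosome 10. Rdh7 (127884027 to 127888733, minus strand) ran from 859 to 1290 CPM around a median of 1041 in control and from 959 to 1085 CPM around 999 in BIBB-515 mice. Every BIBB-515 mouse was inside the control range, and the log2 fold change was -0.07 (95% interval -0.27 to 0.13, FDR 0.641, edgeR's quasi-likelihood test). Rdh16 (127801153 to 127815839, plus strand) was the more variable gene, with 109, 191 and 358 CPM in control and 144, 185 and 226 CPM in BIBB-515 mice. Again the BIBB-515 mice lay inside the control range, and the log2 fold change was -0.19 (95% interval -0.68 to 0.30, FDR 0.627, edgeR's quasi-likelihood test). Without control mouse 3, the highest Rdh16 value, the sign turned to 0.042. The cluster is rich in near copies. Of the 50-base words in their transcripts, 12.9% for Rdh7 and 14.5% for Rdh16 also occur in other genes. The gene sharing most words was Rdh18-ps for Rdh7 and Rdh9 for Rdh16. Reads that mapped to several places were left out of the counts, and how much this lowers either level was not tested.

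Rdh11 encodes a microsomal dehydrogenase that prefers NADPH and reduces retinal to retinol (chromosome 12, 79175551 to 79191819, minus strand). Control mice had 54.7 CPM at the lowest, 78.6 at the median and 152 at the highest, and BIBB-515 mice 116, 129 and 174 CPM. All 6 BIBB-515 mice were above the control mean, but control mouse 3 was above 5 of them. The log2 fold change was 0.57 (SE 0.21, 95% interval 0.13 to 1.01) and its FDR of 0.0803 in edgeR's quasi-likelihood test missed the threshold. All 7 exons had higher means, by 0.53 to 0.65 in log2. The call turned on control mouse 3: without it the log2 fold change was 0.78 and the FDR 0.00625. DESeq2 also gave an FDR under the threshold, 0.0353, at the same fold change of 0.57. On simulated counts, however, DESeq2 made 11.7% false calls, against 3.66% for the quasi-likelihood test.

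Dhrs4, a peroxisomal short-chain dehydrogenase that acts on retinal and other carbonyl compounds (chromosome 14, 55478758 to 55490340, plus strand), had 81.2, 114 and 136 CPM in control and 101, 120 and 126 CPM in BIBB-515 mice. The BIBB-515 mice lay inside the control range. The log2 fold change was 0.04 (95% interval -0.19 to 0.27, FDR 0.835, edgeR's quasi-likelihood test), and -0.031 without control mouse 3.

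**Figure D3:**
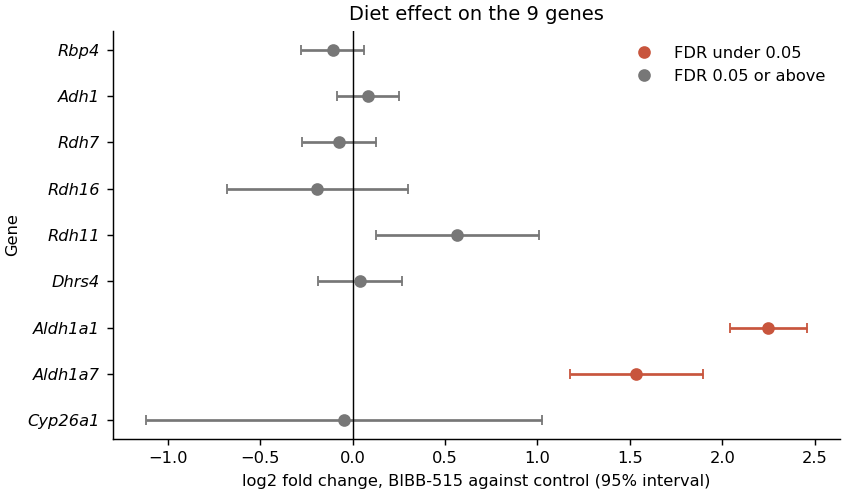
Log2 fold change of each of the 9 genes, BIBB-515 against control, with its 95% interval (6 mice per diet). Aldh1a1 at 2.25 and Aldh1a7 at 1.53 are past the threshold, Rdh11 at 0.57 has an interval above 0 but an FDR of 0.0803, and the interval of Cyp26a1 reaches from -1.12 to 1.03.

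Rbp4, the carrier on which the liver sends retinol into plasma (chromosome 19, 38116620 to 38125321, minus strand), had 2810, 3251 and 3616 CPM in control and 2695, 3022 and 3257 CPM in BIBB-515 mice. The groups overlapped and only 1 BIBB-515 mouse was below all control mice. Its fitted log2 fold change was -0.11 (95% interval -0.28 to 0.06, FDR 0.392, edgeR's quasi-likelihood test). Ttr, transthyretin, which holds the RBP4 complex in the circulation, fell by 0.49 in log2 (SE 0.09, FDR 0.00391), from 6600 ± 768 to 4709 ± 393 CPM (SD, n = 6 each) without overlap. Ttr is one of the 3 hepatocyte markers called lower, beside Alb (log2 fold change -0.40) and Serpina1c (-0.58), and their part in its fall was not tested. The log2 ratio of Rbp4 to Ttr within a mouse was higher, at -0.64 ± 0.12 against -1.02 ± 0.20 (SD, n = 6 each, exact permutation p = 0.00433, adjusted 0.00866).

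Cyp26a1 encodes the main retinoic acid hydroxylase of adult liver (chromosome 19, 37697808 to 37701536, plus strand). It was the least abundant member, with 14 to 238 counts per library. Control mice had 0.565, 2.05 and 9.21 CPM and BIBB-515 mice 1.38, 3.42 and 4.62 CPM. The BIBB-515 mice lay inside the control range, which reached from control mouse 6 to control mouse 1. The coefficient of variation was 96.1% in control and 34.3% in BIBB-515 mice. The fitted log2 fold change of Cyp26a1 was -0.05 with a 95% interval of -1.12 to 1.03 (FDR 0.966, edgeR's quasi-likelihood test), and changes inside that interval could not be told from 0 with this spread between mice. The sign rested on single mice, and without control mouse 1 the value was 0.55 (FDR 0.464).

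The Cyp26a1 promoter is shown because the gene is a known retinoic acid target and the letters of a retinoic acid response element are found in it. The following motifs were searched on both strands in the 250 bases before each RefSeq start: direct repeats spaced by 5 bases (DR5, bound by retinoic acid receptors) or by 4 bases (DR4), in which each of the repeated elements could be AGGTCA or AGTTCA, or GGGTCA or else GGTTCA, then TCACNCCAC, the sterol response element of SREBP factors, and the TATA box TATAAA. In the Cyp26a1 window, chr19:37697558-37697807 on the plus strand (GRCm38.p6), a DR5 match lies on the minus strand at positions -32 to -16 from the start, in capitals.
Cyp26a1: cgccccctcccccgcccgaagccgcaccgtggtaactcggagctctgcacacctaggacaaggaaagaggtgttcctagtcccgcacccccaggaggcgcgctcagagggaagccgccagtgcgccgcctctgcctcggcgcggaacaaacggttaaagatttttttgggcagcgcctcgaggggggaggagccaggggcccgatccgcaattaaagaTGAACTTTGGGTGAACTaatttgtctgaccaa
DR5 was present in 29 of 32817 windows of the same length (0.0884%), and Cyp26a1 was the only member with one. DR4 (0.0670% of windows) and TCACNCCAC (1.05%) had no match in the windows of any of the 9 genes. TATAAA, in 12.4% of windows, was in those of Aldh1a7 (positions -244 to -239) and Rdh16 (-82 to -77). No match overlapped another. A match is a description of the letters only, and no match says only that these letters are not in this window.

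Ratios within a mouse, which do not depend on library scaling, set pairs of members side by side. The log2 ratio of Adh1 to Aldh1a1 within a mouse fell from 2.54 ± 0.10 to 0.39 ± 0.17 (SD, n = 6 each), a difference of -2.15 without overlap (exact permutation p = 0.00216, adjusted 0.00866). The log2 ratio of Aldh1a1 to Cyp26a1 counts was 7.43 ± 1.47 in control and 9.22 ± 0.46 in BIBB-515 mice, a difference of 1.79 (exact permutation p = 0.0130, adjusted 0.0195). Its groups overlapped, with control mice up to 9.37 and BIBB-515 mice from 8.61. The Aldh1a1 to Cyp26a1 difference missed the threshold without BIBB-515 mouse 9 (1.63, adjusted exact permutation p = 0.0617). Both of these ratios contain Aldh1a1, so they are not independent of its rise. The ratio of Rdh11 to Adh1 was higher by 0.56 in log2 (adjusted exact permutation p = 0.0753), and by 0.73 without control mouse 3 (0.00974). That of Rdh7 to Rdh16 differed by 0.04 (adjusted exact permutation p = 0.909).

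Per kilobase of exon, which allows for annotated length only, the order of control levels was Rbp4 (2500 ± 214 CPM per kb, SD, n = 6), Adh1 (1749), Rdh7 (670), Aldh1a1 (197), Aldh1a7 (77.0), Dhrs4 (68.8), Rdh16 (65.0), Rdh11 (57.5) and Cyp26a1 (1.95). Coverage along a gene was uneven, so close ranks are a description. In control mice the first Rbp4 exon (367 bases) had a mean of 18.8 CPM and the last (290 bases) 1277 CPM. The first 4 did not overlap with the gene next in order, whereas Aldh1a7, Dhrs4, Rdh16 and Rdh11 overlapped in turn. In BIBB-515 mice Aldh1a1, at 935 ± 139 CPM per kb (SD, n = 6), stood above Rdh7 (636) in each of 6 mice and without overlap, and Aldh1a7 (223) had left the group below it. Rbp4 (2319) and Adh1 (1852) now overlapped, as did Rdh11 (85.2) with Dhrs4 (70.8) and Dhrs4 with Rdh16 (57.0).

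Some of the dehydrogenases varied with each other from mouse to mouse, apart from diet. Over the 12 mice, with each diet's mean taken out, Rdh11 and Dhrs4 had a Pearson r of -0.94 (permutation p = 8e-05, adjusted over 36 pairs 0.00288) and a Spearman rho of -0.87 (permutation p = 0.00118, adjusted 0.0425). Within diets r was -0.95 in control and -0.90 in BIBB-515 mice, and it was -0.84 without control mice 3 and 5, the farthest in Rdh11. It was the only pair of 36 to pass for both measures. Another 4 pairs passed for r alone, namely Rdh7 with Rdh11 (-0.91), Rdh7 with Dhrs4 (0.88), Dhrs4 with Rbp4 (0.82) and Rdh11 with Rbp4 (-0.81). Without control mice 3 and 5 these became -0.75, 0.70, 0.56 and -0.52, so the last 2 in particular leaned on those mice. In control mouse 3 Rdh11, Rdh16 and Aldh1a7 were the highest of the control group and Dhrs4, Rdh7 and Rbp4 the lowest. Control mouse 5 was the reverse for Rdh11, Dhrs4, Rdh7 and Rbp4.

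**Figure D4:**
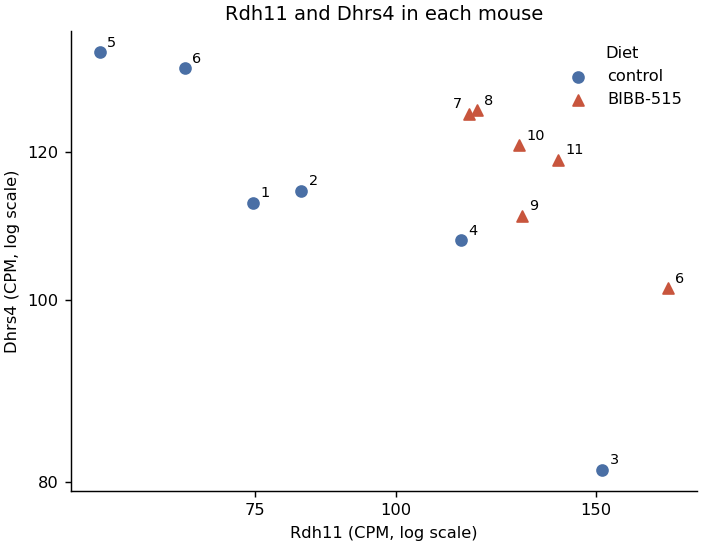
Rdh11 against Dhrs4 in each mouse (CPM, both axes log), numbered by mouse, with control as circles and BIBB-515 as triangles. In each diet the mice with more Rdh11 have less Dhrs4 (r = -0.95 in control, -0.90 in BIBB-515), and the BIBB-515 mice lie to the right of control mice of like Dhrs4.

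The genes most like each member by the same measure, among the 11169 genes of average log2 CPM of at least 1, differed from member to member and are given as a description. For Dhrs4 they were Ech1, Decr1 and Hadh, 3 enzymes of fatty acid oxidation (r = 0.98, 0.98 and 0.97, 12 mice). For Rdh11 they were Lactb2, Acta2 and Dhcr7, the last a late enzyme of cholesterol synthesis (0.96 each), for Rdh16 Dhrs7 led (0.97), and for Rdh7 Dcakd (0.97). Aldh1a7 was most like Tpm4, Dhx33 and Ces2g (0.95, 0.95 and 0.94). Aldh1a1 had the loosest match, with Fam220a at 0.81 and Steap4 at 0.80. For Rbp4 it was Phb2 (0.96), for Cyp26a1 Col13a1 (0.93) and for Adh1 Asna1 (0.87).

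A hand-written list of 49 further genes of vitamin A handling put the members in context. The tables held 48 of them and 37 were tested. Of these 5 were higher, 5 lower and 27 not past the threshold (27.0% called, against 13.7% of all tested genes), with a median log2 fold change of -0.07 against -0.01. Because the list was written with earlier results of these data known, its share called is a description only.

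In storage and binding, 2 of 5 tested genes rose and 2 fell (80% called, against 13.7% of all tested genes). Lrat, which esterifies retinol for storage in stellate cells, had 11.7, 24.9 and 35.3 CPM in control and 11.3, 13.5 and 16.3 CPM in BIBB-515 mice. The BIBB-515 mice were at the low end of the control range, and Lrat fell by 0.81 in log2 (SE 0.21, FDR 0.0202, edgeR's quasi-likelihood test). Fabp5, a carrier of fatty acids and retinoic acid, fell by 1.02 (SE 0.25, FDR 0.0160), from 344 ± 142 to 169 ± 45.6 CPM (SD, n = 6 each). Dgat1, which also esterifies retinol, rose by 0.24 (FDR 0.0310), and Lipe, hormone-sensitive lipase, by 0.27 (FDR 0.0331). Lrat is also a stellate cell marker. The 11 stellate markers summed to 518 to 642 CPM in control and 487 to 548 CPM in BIBB-515 mice (exact permutation p = 0.00649, adjusted over 7 marker lists 0.0227). The most abundant were Ecm1 (means of 212 and 187 CPM) and Dcn (188 and 155 CPM). Of the 11, Lrat and Dcn were past the threshold as lower (18.2% called, against 13.7% of all tested genes). The median log2 fold change of the 11 was -0.18, and Lhx2 and Hand2 were at -0.01 and -0.02. In whole liver, fewer cells of a type and less RNA per cell cannot be told apart.

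Among the retinol and retinal dehydrogenases 1 of 11 tested genes rose and 2 fell (27.3% called, against 13.7% of all tested genes). Adh7 fell by 0.83 (SE 0.14, FDR 0.0019), from 19.3 ± 3.79 to 10.8 ± 2.08 CPM (SD, n = 6 each) without overlap. Rdh9, the neighbour of Rdh16, fell by 0.50 (FDR 0.0175), and Adh5, the class III alcohol dehydrogenase, rose by 0.26 (FDR 0.0148) from 340 ± 23.3 to 406 ± 14.7 CPM (SD, n = 6 each). Dhrs3 and Rdh10, which interconvert retinal and retinol, had log2 fold changes of 0.35 (FDR 0.0601) and 0.21 (FDR 0.0836).

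At the retinal to retinoic acid step, 1 of 4 further tested genes rose (25% called, against 13.7% of all tested genes). Aox1, aldehyde oxidase, which can also oxidise retinal, had 34.1, 41.1 and 54.1 CPM in control and 65.9, 75.7 and 80.2 CPM in BIBB-515 mice. Its groups did not overlap, and it rose by 0.84 in log2 (SE 0.10, FDR 9.02e-05, edgeR's quasi-likelihood test). Aox3 had a log2 fold change of 0.43 (FDR 0.0840) and Aldh8a1 one of 0.03 (FDR 0.763). Aldh1a3, a further retinaldehyde dehydrogenase, had 0.801 ± 0.234 CPM in control and 0.927 ± 0.317 CPM in BIBB-515 mice (SD, n = 6 each), with a log2 fold change of 0.21 (FDR 0.637, edgeR's quasi-likelihood test). Aldh1a2 was too low to be tested, at 0.369 ± 0.113 and 0.317 ± 0.206 CPM (SD, n = 6 each).

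Of the further genes of breakdown, Cyp26b1, the other hepatic retinoic acid hydroxylase, had a log2 fold change of -0.99 (FDR 0.173) with 6.57 ± 4.13 against 3.29 ± 1.71 CPM (SD, n = 6 each), Cyp2c39 one of -0.14 (FDR 0.357) and Cyp2s1 one of -0.23 (FDR 0.699, edgeR's quasi-likelihood test). Of 6 receptors, Rara alone was past the threshold (16.7% called, against 13.7% of all tested genes) and rose by 0.25 (FDR 0.0349). Rarb, itself a classic retinoic acid target, had a log2 fold change of -0.10 (FDR 0.662), and Rxra, the main hepatic retinoid X receptor, one of 0.07 (FDR 0.724).

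**Figure D5:**
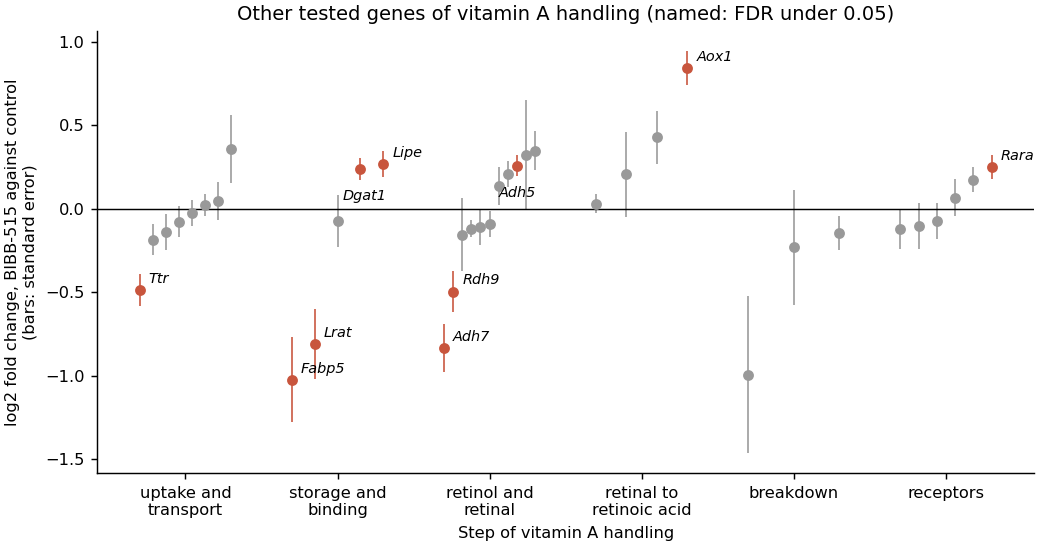
Log2 fold change (BIBB-515 against control, bars: SE, 6 mice per diet) of the 37 tested genes of vitamin A handling other than the 9 members, by step. The 10 named genes are past the threshold, 5 of them higher, with Aox1 at 0.84 the highest, and 5 lower, with Fabp5 at -1.02 the lowest.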

How the data were processed

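RNA-seq of liver from 12 mice, 6 per diet, was analysed. The authors deposited whole-number counts of reads per gene and per exon, made, per the file headers, with featureCounts (Subread 1.6.3) on mm10 with a UCSC annotation, unstranded, with multi-mapping reads and those on overlapping genes dropped; the submitters' processing notes name STAR 2.5.3a as the aligner. A second gene table per mouse, from primary alignments, was used as an alternative, and transcript tables were not used. Library preparation is not given in the sources used here. Diet and mouse number came from each library's labels, which name no batch.

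The filter kept genes reaching 1 CPM in 2 or more libraries, which were tested with edgeR 4.0.16 (TMM factors, quasi-likelihood test, diet as the only term) in R 4.3.3, with Benjamini-Hochberg adjustment over 12481 genes and an FDR threshold of 0.05. Single values, within-mouse ratios (counts + 0.5, log2) and marker sums were tested with two-sided exact permutation tests over 924 labelings, and correlations with 100000 permutations within diets. On simulated counts with 200 of 12373 genes changed between these groups, the quasi-likelihood test recovered 92% (77.0% at 1.5-fold, 97.2% at 2-fold) with 3.66% false calls. On the same counts false calls were 3.17% with limma-voom, 10.4% with the edgeR likelihood ratio test and 11.7% with DESeq2. DESeq2 1.42.0, limma 3.58.1 (voom), the edgeR likelihood ratio test, upper-quartile scaling, other filters, the primary tables, 1 surrogate variable (sva 3.50.0) and leaving out each mouse were the alternatives. Libraries of one diet differed by more than counting noise (chi-square per degree of freedom of at least 12.7), so none was counted as a duplicate. The primary tables differed from the main ones by at most 0.124% for any of the 9 genes.

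Promoter windows are from RefSeq (GRCm38.p6), and the transcripts behind the coding sequences and shared words are from GENCODE. The deposited positions are used for genes. Of the 49 listed genes, Bco1 and Stra6l were found under the older names Bcmo1 and 1300002K09Rik, and Rdh16f2 was not matched. Named were the 9 genes in full, every listed gene past the threshold, and Rarb, Cyp26b1, Dhrs3, Rdh10, Aldh1a2 and Rxra whatever their result (1 further gene of that rule is not reported here); Aox3, Aldh8a1, Aldh1a3, Cyp2c39, Cyp2s1 and the genes most alike to each member were added as context. The members and lists were chosen with earlier results of these data known. Intervals and SEs cover the spread between mice.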

Additional observations from a re-analysis of the deposited data

Results flagged for a closer look

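Adh5 in BIBB-515 mice was picked out because its highest sample, mouse 11 at 435 CPM, stood apart from the next at 406 CPM, a gap of 0.771 of the group's range (above Dixon's 95% critical value for 6 samples). It was the only such case in 54 groups examined, where chance gives about 2.7.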

How the results depend on the processing

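Aldh1a1 and Aldh1a7 kept their direction and their side of the threshold under every alternative run, with log2 fold changes of 2.18 to 2.31 and 1.45 to 1.68 when each mouse was left out in turn. Rdh11 passed the threshold with DESeq2 (log2 fold change 0.57), the edgeR likelihood ratio test (0.57, FDR 0.0467) and 1 surrogate variable (0.65, FDR 4.77e-05). It did not with limma-voom (0.64, FDR 0.0519). DESeq2 and the likelihood ratio test made more false calls on simulated counts (11.7% and 10.4%) than limma-voom (3.17%). Leaving out each mouse gave Rdh11 log2 fold changes of 0.46 to 0.78. The members past the threshold were thus 2 or 3 in every setting. Of the further vitamin A genes, 10 were past the threshold in all mice and 7 to 11 without each mouse in turn. With DESeq2 and with 1 surrogate variable there were 12. Cyp26a1 changed sign with limma-voom (0.47, FDR 0.591) and ran from -0.26 to 0.55 without each mouse in turn, positive without control mouse 1, control mouse 3 or BIBB-515 mouse 9. The same range was -0.32 to 0.042 for Rdh16 and -0.031 to 0.10 for Dhrs4, with the sign turned by control mouse 3 in both. The count of genes lower with BIBB-515, 809 in all mice, ran from 523 to 897 without each mouse in turn, with 526 without BIBB-515 mouse 9 and 523 without mouse 10, and was 970 with the edgeR likelihood ratio test, 1081 with DESeq2 and 1163 with 1 surrogate variable. Among log2 ratios without each mouse, Rdh7 to Rdh16 ran from -0.20 to 0.22 (below 0 without control mouse 2 or 3 or BIBB-515 mouse 8 or 10), Aldh1a1 to Cyp26a1 from 1.39 to 2.18 and Rdh11 to Adh1 from 0.41 to 0.73. The cause was not tested in any of these. The median log2 fold change over all genes stayed within 0.02 of 0 in every setting. No paired analysis was possible because the diet groups share only the number 6. Cyp26a1 had the fewest counts of the members, 14 to 238 per library, and the widest spread between control mice.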
